A study of Mus musculus with 64 samples.

Results

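Csf1r, Cx3cr1, C1qa, C1qb, C1qc, Mrc1, Cd163, Cd68, Lyz2 and Ptprc are genes read in macrophages, and they were followed here through RNA-Seq of the juvenile mouse testis. They were taken by gene symbol, 10 of the 26385 genes listed in every deposited table. The rule uses no measured value, but the genes were chosen with earlier results of these data known. All 10 passed the filter on low counts in every whole testis comparison, so none was dropped.

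The testis holds a resident macrophage population in the space around the Leydig cells and along the outer wall of the seminiferous tubules. These cells depend on CSF1, which signals through the receptor encoded by Csf1r, and they engulf debris and supply signals to neighbouring cells. A library made from a whole testis reads them together with germ cells, Sertoli cells, Leydig cells, peritubular cells and vessels. In such bulk samples fewer cells of a type and less RNA per cell cannot be told apart.

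The genes were measured in 27 whole testis libraries and, as a check of purity, in 20 libraries of sorted germ cells, each library from 1 mouse. The Morc1 line carries the Morc1 tg allele, a tyrosinase transgene inserted at Morc1 that removes several exons, on an FVB/N background for the whole testes. Morc1 encodes a nuclear protein of the GHKL ATPase family that silences transposons in male germ cells. Homozygous Morc1 tg/tg animals are called Morc1 KO here, as in the labels, and Morc1 tg/+ animals are called het. The Dnmt3l and Miwi2 lines carry null alleles of a cofactor of de novo DNA methylation and of a PIWI protein, and no source used here gives their strain.

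P stands for days after birth and E for days of embryonic life. At P10.5 the Morc1 line gave 3 KO, 2 het and 1 wild-type (WT) testis. It also gave 1 het and 1 WT library labelled as preliminary, which entered no main test, only stated alternatives. The preliminary libraries are part of the levels, correlations and ratios given over all whole testis, all P10.5 testis or all Morc1-line testis libraries. The Dnmt3l line gave 3 KO, 3 het and 3 WT testes and the Miwi2 line 2 KO and 2 het testes, all at P10.5. At P14.5 the Morc1 line gave 3 KO and 3 het testes. The sorted cells came from the Morc1 line only. They were taken by GFP at E16.5, E18.5 and P2.5, from animals that also carried the Oct4-IRES-eGfp reporter and were of mixed background, and by low side scatter, high EPCAM and no surface MHC class I at P10.5 (4 het and 3 KO). All comparisons with the Morc1 KO at P10.5 used the 2 het and the WT libraries together as controls, and those with the Dnmt3l KO used the 3 het and 3 WT libraries.

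Whole testis libraries held 22509570 to 42137954 reads on genes (median 28815956, n = 27), and sorted germ cell libraries held 2413679 to 14918478 (median 7542692, n = 20). Morc1 was lower in all Morc1 KO testes, at 2.06 to 2.41 RPKM (reads scaled to transcript length and to the mapped reads of the library) against 6.29 to 10.2 RPKM in controls at P10.5, and at 2.63 to 3.49 RPKM against 7.73 to 8.77 RPKM at P14.5. Dnmt3l was at 0.0370 to 0.0464 RPKM in the Dnmt3l KO libraries against 0.374 to 1.02 RPKM in their controls. Piwil4, the gene of MIWI2, was at 10.7 and 11.6 RPKM in the libraries labelled Miwi2 KO and at 6.65 and 7.01 RPKM in the Miwi2 het libraries. A loss of the transcript would give the opposite order. The reads cover the whole gene and the deleted part was not looked at separately, so this check does not settle the labels in either direction. Transposon levels were not analysed here, and every direction drawn from that pair of groups rests on the labels.

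At P14.5 the libraries numbered 1 stood apart for these genes in both genotypes. Het replicate 1 and KO replicate 1 were above the 27-library mean for 10 of 10 genes each, by 0.61 and 0.92 on the log2 scale on average. The other 4 P14.5 libraries lay between -0.12 and 0.19. Summed over the 10 genes, the level was 128 and 152 RPKM in that pair and 77.1 to 84.3 RPKM in the other 4. For 22 further macrophage genes, fixed as a list, the sums were 151 and 178 RPKM against 111 to 121 RPKM. The genotype test of the 10 genes at P14.5 is therefore also given without that pair, whereas the marker lists at P14.5 are given with it.

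The C1q genes encode the 3 chains of C1q, the recognition unit of the classical complement pathway. They lie side by side on the minus strand of chromosome 4 in the mm9 build that the files use, with C1qb at chr4:136436044-136442102, C1qc at chr4:136445719-136448980 and C1qa at chr4:136451832-136454718. The cluster spans 18675 bases from end to end. Lyz2, the lysozyme gene of macrophages and other myeloid cells, lies at chr10:116714390-116719377, only 5474 bases from its near copy Lyz1. Of the 1264 windows of 50 bases (the length of a trimmed read) along Lyz2 transcripts, 15.4% occurred letter for letter in Lyz1. Within 2 mismatches, which the mapping allowed, 60.6% matched. Such reads could be dropped or, with an error, assigned to the other gene, so the level of Lyz2 is uncertain to that extent. Lyz1 counts were 0.0710 to 0.121 of the Lyz2 counts across the 27 testis libraries. Csf1r shares 871 exon bases with Hmgxb3 on the opposite strand, and the testis kit does not keep the strand.

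The promoters of the 2 C1q genes that RefSeq's table holds, and of the lysozyme pair, are shown as the 250 bases before the start site, because the level of C1qb differed between mouse lines (given further on) and because Lyz2 and Lyz1 share sequence there. Sequences are from RefSeq on GRCm38.p6, minus strand, 5′ to 3′. They are those of the reference genome, and the sequence of no mouse line of the study was examined. Capitals mark GAGGAA or its reverse complement TTCCTC, a core to which the myeloid factor PU.1 can bind.

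C1qb, chr4:136886201-136886450: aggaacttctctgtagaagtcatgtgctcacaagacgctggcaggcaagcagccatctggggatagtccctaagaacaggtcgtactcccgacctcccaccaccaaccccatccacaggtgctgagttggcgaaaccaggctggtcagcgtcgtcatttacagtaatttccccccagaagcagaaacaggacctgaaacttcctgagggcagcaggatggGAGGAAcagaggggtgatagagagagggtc
C1qc, chr4:136892915-136893164: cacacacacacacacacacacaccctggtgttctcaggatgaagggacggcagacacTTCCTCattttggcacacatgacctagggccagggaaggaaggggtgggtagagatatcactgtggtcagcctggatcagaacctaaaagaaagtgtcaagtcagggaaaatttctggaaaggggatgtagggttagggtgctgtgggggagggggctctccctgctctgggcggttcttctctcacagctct
Lyz2, chr10:117282273-117282522: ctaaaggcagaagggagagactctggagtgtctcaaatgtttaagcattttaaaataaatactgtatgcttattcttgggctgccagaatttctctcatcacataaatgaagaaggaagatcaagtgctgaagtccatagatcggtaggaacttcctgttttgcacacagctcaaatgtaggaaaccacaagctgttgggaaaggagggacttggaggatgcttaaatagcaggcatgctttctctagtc
Lyz1, chr10:117292869-117293118: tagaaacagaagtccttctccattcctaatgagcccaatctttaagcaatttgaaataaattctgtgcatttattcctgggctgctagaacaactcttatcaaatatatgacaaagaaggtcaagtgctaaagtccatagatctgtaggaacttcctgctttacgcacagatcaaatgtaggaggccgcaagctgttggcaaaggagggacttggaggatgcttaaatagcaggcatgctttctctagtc

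The Lyz2 and Lyz1 promoters were identical at 152 of 250 positions (60.8%) when set side by side without gaps. Stretches shifted against each other then count as different, so this share can understate the likeness. The table held promoters for 8 of the 10 genes, 9 windows of 300 bases in all. GAGGAA occurred on either strand in 5 of the 9 windows (Ptprc, Mrc1, C1qb, C1qc and Cd68), and in 28.3% of all 32851 windows of that length. A match of letters is no measurement of binding.

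In whole testis all 10 genes were read in every library. Per length, the order of the mean RPKM over the 27 libraries was Lyz2 (24.2 ± 8.98, SD), C1qa (13.7 ± 4.26), C1qb (12.0 ± 4.04), C1qc (11.9 ± 3.64), Mrc1 (7.04 ± 2.70), Cd68 (5.00 ± 1.03), Csf1r (4.69 ± 1.61), Cx3cr1 (3.00 ± 1.12), Cd163 (0.423 ± 0.112) and Ptprc (0.419 ± 0.111). Lyz2 was above C1qa, C1qc above Mrc1, Csf1r above Cx3cr1 and Cx3cr1 above Cd163 in 27 of 27 libraries. The other neighbours changed places: C1qb was above C1qc in 15 libraries, C1qa above C1qb in 16, and Cd163 above Ptprc in 13. The 2 lowest genes are the receptor that takes up haptoglobin with haemoglobin (Cd163) and the CD45 phosphatase of all white blood cells (Ptprc).

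From the lowest to the highest library the levels spanned 2.13-fold for Cd68 up to 4.24-fold for Mrc1. Csf1r followed the other 9 genes most closely, with a Pearson correlation of 0.967 between its log2 level and the mean of the others over the 27 libraries. Cx3cr1, Mrc1 and C1qb followed least, at 0.647, 0.665 and 0.675. With each group's mean taken away these rose to 0.923, 0.801 and 0.880 over the 24 libraries of groups with over 1 library. Cd163 and Lyz2 went the other way, from 0.692 to 0.606 and from 0.795 to 0.741, and Cd163 then followed least. Cd68 fell from 0.905 to 0.858 and Csf1r from 0.967 to 0.954. The libraries share lines and ages, so these values describe the set and carry no p-value.

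Among 13916 genes with a mean of at least 1 CPM (a count scaled to the reads on genes), the 5 whose log2 level was most like the mean of the 10 were Stab1 (0.936), Rac2 (0.909), Hcls1 (0.904), Fcgr3 (0.903) and Nfam1 (0.887), all as Pearson correlations over the 27 libraries. Stab1 is a scavenger receptor and Fcgr3 an antibody receptor. Rac2 and Hcls1 are signalling proteins of blood cells. Within groups (24 libraries) the same 5 values were 0.949, 0.938, 0.901, 0.867 and 0.872.

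The sorted germ cells at P10.5 held next to none of the C1q, Lyz2 and Cd163 transcripts. C1qa, C1qc and Lyz2 had 0 reads in all 7 libraries. C1qb had 2 reads and Cd163 had 3 reads, each in 1 library. Ptprc summed to 30 reads, Csf1r to 70, Cx3cr1 to 72, Mrc1 to 364 and Cd68 to 514 over the 7 libraries. In RPKM, Mrc1, the mannose receptor CD206, reached 0.374 to 0.805 in sorted cells and 3.65 to 10.6 in the 21 P10.5 testis libraries. Csf1r reached 0.0263 to 0.255 against 2.80 to 7.37, and the fractalkine receptor Cx3cr1 0.0480 to 0.355 against 1.66 to 5.14. None of these ranges overlapped.

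**Figure D1:**
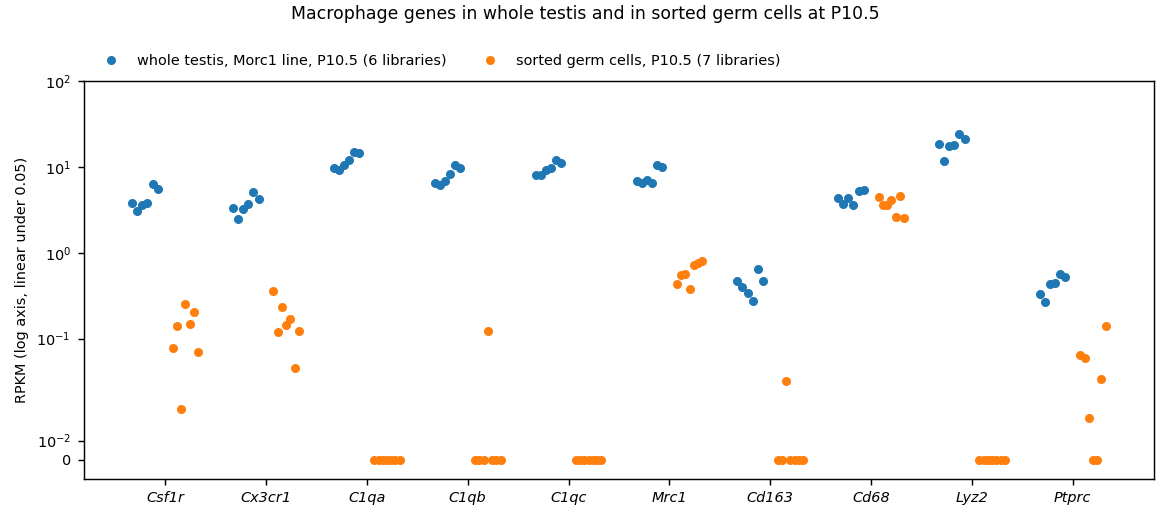
RPKM of the 10 genes (y axis, log scale above 0.05 and linear below it) in the 6 Morc1-line whole testis libraries (blue) and the 7 sorted germ cell libraries (orange) at P10.5, 1 point per library. C1qa, C1qc and Lyz2 lie at 0 in all sorted libraries, and Cd68 is the only gene whose orange and blue points overlap.

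Cd68, a lysosomal glycoprotein used as a macrophage marker, was the exception at P10.5. It stood at 2.54 to 4.62 RPKM in the sorted cells and 3.58 to 6.62 RPKM in testis, and the groups overlapped. In the 13 sorted libraries from earlier ages it reached 23.0 RPKM. The other markers were not all absent at those ages. Mrc1 was read in all 13 libraries (1547 reads in sum, up to 5.41 RPKM), and its highest value lay inside the testis range at P10.5. Ptprc reached 0.611 RPKM and Cd163 0.460 RPKM, also at testis levels, though each was at 0 in 6 of the 13. C1qa was at 0 in 9 of the 13 libraries and Lyz2 in 11, while C1qa had 18 reads (4.10 RPKM) and C1qb 14 reads in KO replicate 1 at P2.5. The share of the Cd68 reads in whole testis that came from germ cells was not measured.

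Set against the 2 het testes at P10.5, the 4 het sorted libraries gave 9 genes lower and 1 (Cd68) higher, in a fit where 40.5% of 14973 genes were lower and 77.7% changed. For the 3 genes with 0 reads, set at the limit of 3 counts over the group, the fall was at least 242-fold for Lyz2, at least 132-fold for C1qc and at least 130.2-fold for C1qa. Among genes with more reads it was 15.7-fold for Csf1r, 8.02-fold for Mrc1, 7.84-fold for Cx3cr1 and 5.26-fold for Ptprc. Cd68 was higher in sorted cells by 0.67 on the log2 scale (SE 0.24, adjusted p = 0.0184, edgeR) in counts scaled to the reads on genes. In RPKM the same groups were level, at 3.97 ± 0.449 (SD, n = 4) and 4.00 ± 0.445 (SD, n = 2), so its direction rests on the scaling. Sorted and whole samples were made with different kits (rRNA depletion against poly-A selection), so cell source and kit cannot be told apart.

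The first comparison asks whether the macrophage genes differ in testes that lack MORC1. At P10.5, 6 of 10 were higher (Csf1r, Cx3cr1, C1qa, C1qb, C1qc and Ptprc), none was lower and 4 did not pass the test, where 6.08% of 15165 genes were higher and 15.3% changed. In 1 fit over all 27 testis libraries none of the 10 passed. The median log2 fold change of the 10 was 0.47, against 0.01 over all genes tested. Folds were modest, from 1.16-fold to 1.52-fold by gene.

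C1qb stood at 8.34, 10.53 and 9.72 RPKM in the 3 KO testes, 6.21 and 6.80 RPKM in the 2 het testes and 6.56 RPKM in the WT testis. All KO libraries were above all controls. The log2 fold change was 0.57 (SE 0.10, adjusted p = 0.0051, edgeR). C1qa behaved alike, at 12.2, 14.9 and 14.46 RPKM against 9.29, 10.46 and 9.86 RPKM, with a change of 0.51 (SE 0.10, adjusted p = 0.00566). C1qc stood at 9.65, 12.2 and 11.3 RPKM in KO and 8.01, 9.30 and 8.16 RPKM in controls, again without overlap (0.40, SE 0.10, adjusted p = 0.0267).

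Of the receptors, Cx3cr1 stood at 3.71, 5.14 and 4.27 RPKM in KO against 2.50, 3.26 and 3.36 RPKM in controls, without overlap (log2 fold change 0.54, SE 0.13, adjusted p = 0.0213, edgeR). Csf1r stood at 3.76, 6.40 and 5.50 RPKM against 3.08, 3.61 and 3.83 RPKM, and KO replicate 1 fell within the controls (0.60, SE 0.16, adjusted p = 0.0304). Ptprc changed by 0.60 (SE 0.18, adjusted p = 0.0476), from 0.265 to 0.429 RPKM in controls to 0.442 to 0.567 RPKM in KO. In total 5 of the 10 genes had all KO libraries above all controls in RPKM, as did 15.2% of the genes tested. Mrc1 (0.43, adjusted p = 0.0597), Lyz2 (0.44, adjusted p = 0.0741), Cd68 (0.23, adjusted p = 0.336) and Cd163 (0.22, adjusted p = 0.609) did not pass.

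**Figure D2:**
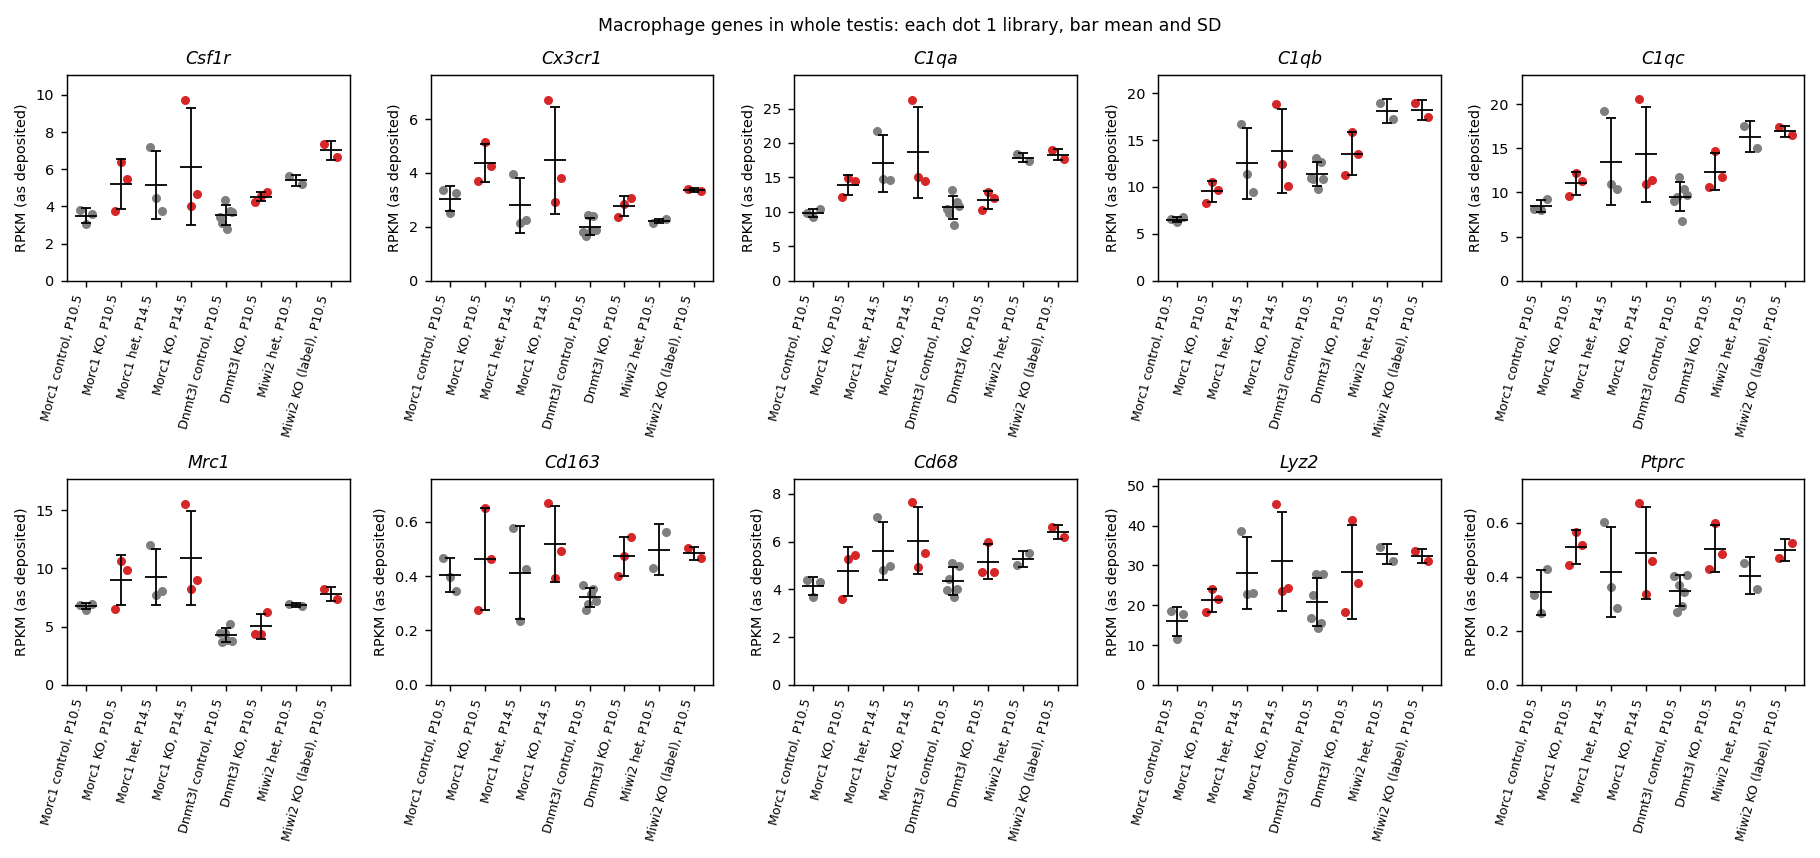
RPKM as deposited (y axis from 0) of each gene in whole testis, 1 point per library, with the group mean and SD; controls are grey and KO red, and the 2 preliminary libraries are left out. At P10.5 the 3 Morc1 KO points of C1qa, C1qb, C1qc, Cx3cr1 and Ptprc lie above all 3 control points, and at P14.5 the highest point of each genotype is replicate 1 for all 10 genes.

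The count rests on few libraries. It was 2 (C1qa and C1qb) without KO replicate 2 or without KO replicate 3, 3 without het replicate 2, and 9 without KO replicate 1, which was the lowest of the KO libraries for all 10 genes. DESeq2 called 4 (C1qa, C1qb, C1qc and Cx3cr1), without Csf1r and Ptprc. C1qa and C1qb passed in each of the 6 fits that left out 1 library.

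Of 22 other genes read in macrophages, 9 were higher in the same libraries, none was lower and 13 did not pass (median of the 22 at 0.46). Among the 9 were Emr1, which encodes the F4/80 antigen (0.84, adjusted p = 0.0179, edgeR), Ctss, cathepsin S (0.63, adjusted p = 0.00613), Fcer1g, the shared signalling chain of antibody receptors (0.59, adjusted p = 0.00646) and Lyve1, a hyaluronan receptor (0.52, adjusted p = 0.0449). Of the 4 ligands, Csf1, the growth factor of macrophages, was higher (0.42, adjusted p = 0.00184) and the other 3 did not pass. Among the myeloid transcription factors, Sfpi1, the gene of PU.1 (0.53, adjusted p = 0.0415), and Cebpa (0.51, adjusted p = 0.00172) were higher. Of the 5 MHC class II genes, H2-Aa (0.79) and Cd74 (0.77) passed. None of the 5 lymphocyte genes tested passed, and no granulocyte or mast cell gene had enough counts to test.

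Markers of other cells moved as well. All 5 germ cell genes on the list were lower in the Morc1 KO (median log2 fold change -0.66), and their summed level was 178 to 202 RPKM in KO against 304 to 311 RPKM in controls. Of the somatic lists, 2 of 5 endothelial, 2 of 5 Sertoli, 1 of 6 Leydig and 1 of 4 peritubular genes were higher and none lower. RPKM and CPM are shares of a library, so a fall in 1 cell type raises the shares of the rest. The part of this in the macrophage genes was not tested.

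At P14.5 none of the 10 genes passed between Morc1 KO and het, where 34.8% of 15283 genes changed and 14.8% were higher. No gene had an unadjusted p under 0.05 in edgeR (0 of 10), and DESeq2 called 0. All 10 log2 fold changes were above 0, from 0.09 to 0.69 (median 0.19, against 0.01 over all genes), with SEs of 0.20 to 0.33. The signs were not stable: without KO replicate 1 alone, 8 of the 10 fell below 0 (as low as -0.22 for C1qc), and only Cx3cr1 and Cd163 stayed above 0 in all 6. Cx3cr1 stood at 6.71, 2.91 and 3.81 RPKM in KO against 3.98, 2.15 and 2.25 RPKM in het. Replicate 1 was the highest of both groups, which overlapped, and the change was 0.69 (SE 0.32, adjusted p = 0.127, edgeR). Csf1r stood at 9.74, 4.01 and 4.66 RPKM against 7.21, 4.44 and 3.76 RPKM, and C1qa at 26.3, 15.1 and 14.497 RPKM against 21.8, 14.8 and 14.55 RPKM. Outside replicate 1 the genotypes of both genes were intermingled.

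Without both replicate 1 libraries Cx3cr1 passed at 0.64 (adjusted p = 0.0299, edgeR) as the only 1 of the 10, and without het replicate 1 alone it passed at 1.02 (adjusted p = 0.0412). Of the 22 further macrophage genes 1 was higher, Mertk, a receptor for dying cells (0.43). Which cells the Mertk reads came from was not measured. H2-Ab1 of MHC class II was lower (-0.47). None of the 3 ligands tested passed, nor did Sfpi1 or Cebpa. All 5 germ cell genes were lower (median -0.98; summed 330 to 379 RPKM in KO against 886 to 1173 RPKM in het), and all 5 Sertoli cell genes were higher. On the lymphocyte list Cd3e was lower (-0.80) and Cd3g higher (0.90), and the fat gene Plin1 was higher (0.70). Of 3 lymphocyte genes tested between sorted germ cells and testis at P10.5, 2 were higher in the sorted cells and 0 lower. Changes on this list can thus not be read as changes in T cells.

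In the Dnmt3l KO at P10.5, 6 of 10 genes were higher (Csf1r, Cx3cr1, C1qb, C1qc, Cd163 and Ptprc) and none lower. In this comparison 24.9% of 15665 genes were higher and 53.9% changed, so calls were common. The median of the 10 was 0.41 on the log2 scale, against 0.00 over all genes. Cd163 stood at 0.400, 0.474 and 0.544 RPKM in KO, 0.367, 0.274 and 0.299 RPKM in WT and 0.335, 0.352 and 0.307 RPKM in het. The KO libraries were all above the controls (0.60, SE 0.15, adjusted p = 0.00571, edgeR). With Ptprc, 2 of the 10 genes had no overlap, near the 16.9% of all genes tested with every KO library above every control. Ptprc stood at 0.430 to 0.599 RPKM against 0.270 to 0.408 RPKM (0.57, SE 0.17, adjusted p = 0.013).

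Cx3cr1 stood at 2.37, 2.86 and 3.08 RPKM in Dnmt3l KO, 1.81, 1.66 and 2.44 RPKM in WT and 1.83, 2.38 and 1.90 RPKM in het. The lowest KO library fell among the highest controls (0.51, SE 0.13, adjusted p = 0.00589, edgeR). Csf1r overlapped in the same way, with 4.26, 4.58 and 4.75 RPKM in KO against 2.80 to 4.32 RPKM in controls (0.41, SE 0.11, adjusted p = 0.00951). C1qc (0.42, SE 0.14, adjusted p = 0.0273) and C1qb (0.30, SE 0.11, adjusted p = 0.0432) passed, and C1qa did not (0.19, adjusted p = 0.243). Lyz2 was at 18.3, 41.4 and 25.6 RPKM in KO against 14.3 to 27.8 RPKM and did not pass (0.49, adjusted p = 0.124).

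Dnmt3l KO replicate 2 stood apart in myeloid genes. Granulocyte and mast cell genes (8 on the list) summed to 68.8 RPKM in this library, 6.57 and 4.18 RPKM in the other KO libraries and 1.17 to 5.38 RPKM in controls. The mast cell proteases Mcpt4 (1.85) and Cpa3 (1.69) were higher in the KO. S100a8 and S100a9, the calprotectin of neutrophils, passed the filter on low counts only once the KO libraries were included, so no test result is given for them. MHC class II genes, 4 of 5 higher, summed to 37.4 RPKM in it, 14.7 and 15.2 RPKM in the other KO libraries and 8.60 to 14.1 RPKM in controls. Without KO replicate 2 the count among the 10 genes was 3 (Csf1r, Cx3cr1 and Cd163).

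Of the 22 further macrophage genes 10 were higher in the Dnmt3l KO and none lower (median 0.43), among them Lyve1 (0.76), Trem2, a lipid receptor (0.68), Fcgr3 (0.55) and Aif1, the gene of IBA1 (0.51). Among the myeloid transcription factors (median of the 5 at 0.34) Cebpa (0.51) was higher and Ikzf1, which acts throughout the blood lineages, was lower (-1.12). Between sorted germ cells and testis at P10.5, 1 of these 5 factors was higher in the sorted cells and 4 were lower. Changes on this list can thus, in every comparison, include germ cell reads. All 5 germ cell genes were lower (median -1.53; summed 132 to 161 RPKM against 361 to 492 RPKM). Of the somatic lists, 3 of 5 Sertoli, 2 of 5 endothelial and 1 of 6 Leydig genes were higher, and of 4 peritubular genes 1 was higher and 1 lower. The only epididymis gene tested, Cst8, was higher (0.73). Of the lymphocyte genes 7 passed the filter on low counts here and 6 between Dnmt3l het and WT. Not all 7 passed without the KO libraries, so no count of calls is given for this list. The part of these shifts in the macrophage genes was not tested.

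Dnmt3l het and WT testes, which differ in 1 copy of Dnmt3l, gave no call among the 10 genes (0 with DESeq2, and 0 with an unadjusted p under 0.05 in edgeR). Over all genes 0.00651% were called. The 10 log2 differences of het over WT ran from -0.20 to 0.08 with SEs of 0.13 to 0.26.

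Between the libraries labelled Miwi2 KO and the Miwi2 het libraries, 2 against 2, Cx3cr1 alone passed, in a comparison where 0.725% of 15997 genes were higher and 1.23% changed. It stood at 3.41 and 3.32 RPKM against 2.15 and 2.28 RPKM. The pairs lay far apart relative to their spread (0.58, SE 0.10, adjusted p = 0.016, edgeR). The call was lost in 1 fit over all 27 libraries (adjusted p = 0.405). Leaving out 1 library leaves a group of 1, and the log2 fold change of Cx3cr1 was then 0.53 to 0.63. DESeq2 gave no adjusted p for 7 of the 10 genes, Cx3cr1 among them, and called Csf1r in its place. In edgeR Csf1r did not pass, at 7.37 and 6.66 RPKM against 5.62 and 5.20 RPKM (0.36, SE 0.08, adjusted p = 0.0534). With 1 library left out its log2 fold change was 0.28 to 0.42.

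The complement and lysozyme genes showed no such gap. C1qa was at 18.9 and 17.7 RPKM against 18.3 and 17.4 RPKM, and Lyz2 at 33.7 and 31.1 RPKM against 34.6 and 31.1 RPKM. The log2 fold changes of C1qa, C1qb, C1qc, Lyz2 and Cd163 lay between -0.06 and 0.04, and the median of the 10 was 0.10. Cd68 (0.26, adjusted p = 0.223), Mrc1 (0.17, adjusted p = 0.203) and Ptprc (0.29, adjusted p = 0.407, edgeR) lay higher and did not pass. Of the 22 further macrophage genes only Stab1 passed (0.32, adjusted p = 0.0398, edgeR), and none of the 5 germ cell genes did. The fat genes on the list summed to 25.1 and 28.2 RPKM in het and 5.89 and 6.09 RPKM in the libraries labelled KO. All 4 passed the filter on low counts here, against 2 in the Morc1 and Dnmt3l KO comparisons at P10.5. They can thus have passed through the het libraries alone, so no test result is given for them. One of these genes, Fabp4, is also read in macrophages and vessels. Of 4 red blood cell genes tested Hba-a1, an alpha globin gene, was higher (0.57), and of 6 Leydig genes Star, which brings cholesterol into mitochondria, was lower (-0.44). The part of these shifts in Cx3cr1 was not tested.

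Set side by side, the log2 fold change of Cx3cr1 was 0.54 in Morc1 KO at P10.5, 0.69 in Morc1 KO at P14.5, 0.51 in Dnmt3l KO and 0.58 in the libraries labelled Miwi2 KO. These 4 comparisons share no library, and the direction of the last rests on its labels. Cx3cr1 passed in 3 of them, and at P14.5 it did not (adjusted p = 0.127, edgeR). The calls changed with the fit: in 1 fit over all 27 libraries Cx3cr1 passed in Morc1 KO at P14.5 (0.73, adjusted p = 0.0149) and in Dnmt3l KO (0.56, adjusted p = 0.0158), and did not in Morc1 KO at P10.5 (0.54, adjusted p = 0.149) or in the Miwi2 pair. Csf1r was at 0.60, 0.26, 0.41 and 0.36 and passed in Morc1 KO at P10.5 and in Dnmt3l KO. C1qa was at 0.51, 0.14, 0.19 and 0.02 and passed in Morc1 KO at P10.5 only. The genes set side by side were picked after the values were seen. All members but C1qb, Cd163 and Lyz2 were above 0 in all 4 comparisons as labelled. The share of all genes with such agreement was not computed.

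**Figure D3:**
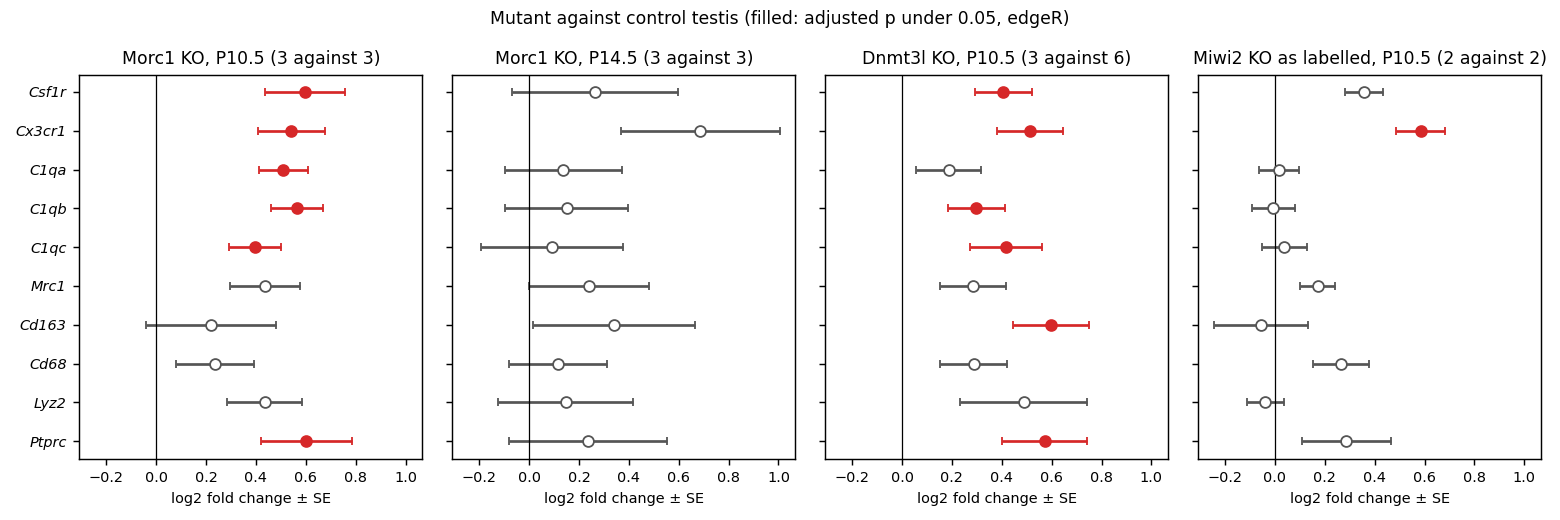
Log2 fold change of KO over control testis (x axis) with its SE for the 10 genes in the 4 genotype comparisons; red filled points have an adjusted p under 0.05 in edgeR and open points do not. Cx3cr1 lies between 0.51 and 0.69 in all 4 panels as labelled, while C1qa, C1qb and C1qc lie near 0 in the Miwi2 panel, whose signs rest on labels that Piwil4 does not settle.

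A call in one comparison and not in another does not show that they differ, so the differences were tested. Between P14.5 and P10.5 the effect of Morc1 differed for none of the 10 genes, where 8.22% of 15657 genes did. The differences ran from -0.42 (C1qb) to 0.14 (Cx3cr1), with SEs of 0.27 to 0.46 and a lowest adjusted p of 0.423 in edgeR. Without KO replicate 1 at P14.5, C1qa alone passed, at -0.70 (adjusted p = 0.0449) in place of -0.38 (adjusted p = 0.446). Between the Dnmt3l and Morc1 effects at P10.5 none passed either, where 17.6% of 15902 genes did. Here C1qa differed by -0.27 (adjusted p = 0.308), Cd163 by 0.43 (adjusted p = 0.36) and Cx3cr1 by 0.02 (adjusted p = 0.957). In both tests 0 of the 10 genes had an unadjusted p under 0.05 and DESeq2 called 0.

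From P10.5 to P14.5, 4 of 10 genes were higher in Morc1 het testes (3 against 2), where 25.4% of 15538 genes were higher and 51.4% changed. C1qb stood at 16.7, 11.4 and 9.42 RPKM at P14.5 against 6.21 and 6.80 RPKM (0.93, SE 0.22, adjusted p = 0.00636, edgeR). Lyz2 stood at 38.5, 22.9 and 23.0 RPKM against 11.6 and 17.7 RPKM (0.93, SE 0.24, adjusted p = 0.0108). C1qa (0.77, SE 0.18, adjusted p = 0.00569) and Mrc1 (0.45, SE 0.17, adjusted p = 0.0485) also passed. DESeq2 called C1qc in place of Mrc1. None of these 4 overlapped between ages, nor did Csf1r, C1qc and Cd68, which did not pass. Of all genes tested, 36.2% had every P14.5 library above both P10.5 libraries.

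Cx3cr1 did not follow: it stood at 3.98, 2.15 and 2.25 RPKM at P14.5 against 2.50 and 3.26 RPKM at P10.5 (-0.06, adjusted p = 0.854, edgeR). The count of 4 was 7 without P14.5 het replicate 2 and 3 (C1qa, C1qb and Lyz2) without P14.5 het replicate 1. Leaving out either P10.5 het library leaves a group of 1, so no count is given for those fits. Of the 22 further macrophage genes 12 were higher and none lower (median 0.67), led in size by Timd4, a receptor for phosphatidylserine (1.64), Siglec1, sialoadhesin (1.63), and the antibody receptors Fcgr1 (1.09) and Fcgr3 (1.03). Of the MHC class II genes H2-Ab1 (1.85), Cd74 (1.38) and H2-Aa (1.30) were higher. All 5 germ cell genes were higher. Of 5 Sertoli genes 4 were lower and 1 higher, 2 of 5 endothelial and 2 of 4 peritubular genes were lower, and of 6 Leydig genes 1 was higher and 1 lower. Among the myeloid transcription factors (median of the 5 at 0.44) Cebpa was lower (-0.43). The fat gene Plin1 (-0.64) and the epididymis gene Cst8 (-1.09) were lower too, and Cd3e of the lymphocyte list was higher (1.13). The part of these shifts in the macrophage genes was not tested.

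In Morc1 KO testes only C1qb passed between the ages (0.53, SE 0.19, adjusted p = 0.049, edgeR), at 18.8, 12.5 and 10.1 RPKM against 8.34, 10.53 and 9.72 RPKM, where 19.8% of 15163 genes were higher and 41% changed. The groups overlapped. The call was lost in 5 of the 6 fits that left out 1 library. No gene passed without P14.5 KO replicate 1 or without any 1 of the 3 P10.5 KO libraries, Lyz2 passed in place of C1qb without P14.5 KO replicate 2, and C1qa, C1qb and Lyz2 passed without P14.5 KO replicate 3. Of the 22 further macrophage genes 6 were higher, among them Fcgr1 (1.16) and Ccr2, a receptor of monocytes (0.73). The MHC class II genes H2-Ab1 (1.24), H2-Aa (1.14) and Cd74 (1.14), Cd3e of the lymphocyte list (1.08) and Ikzf1 (0.49) were higher. Cebpa (-0.998), the ligand Cx3cl1 (-0.48), Plin1 (-0.41) and Cst8 (-0.93) were lower. All 5 germ cell genes were higher, while 3 of 6 Leydig, 3 of 5 Sertoli, 3 of 5 endothelial and 3 of 4 peritubular genes were lower and 1 Sertoli gene was higher. The part of these shifts in C1qb was not tested. No source used here gives the batches, so age and batch cannot be told apart.

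Among controls, 3 of the 10 genes differed between the Dnmt3l and Morc1 lines at P10.5, a share near that of all genes, of which 33.9% of 15584 changed. Dnmt3l controls (6) had more C1qb than Morc1 controls (3), 9.78 to 13.1 RPKM against 6.21 to 6.80 RPKM (0.78, SE 0.10, adjusted p = 0.000117, edgeR). They had less Mrc1, 3.65 to 5.27 RPKM against 6.45 to 6.96 RPKM (-0.70, SE 0.10, adjusted p = 0.000212), and less Cx3cr1, 1.66 to 2.44 RPKM against 2.50 to 3.36 RPKM (-0.63, SE 0.13, adjusted p = 0.0035). None of these 3 overlapped between the lines, as was the case for 32.8% of all genes tested, so neither count sets the 10 genes apart. C1qa (0.08, adjusted p = 0.653), C1qc (0.14, adjusted p = 0.453) and Csf1r (-0.02, adjusted p = 0.921) did not pass. The same 3 genes passed in each of the 9 fits that left out 1 library.

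Within a library, the count of C1qb over that of C1qa was 0.677 to 0.868 in the 14 Morc1-line testis libraries, of both ages and all genotypes, and 1.03 to 1.29 in the 13 libraries of the Dnmt3l and Miwi2 lines. The count of Mrc1 over that of Csf1r was 1.81 to 2.42 against 1.09 to 1.59. Neither pair of ranges overlapped, whereas C1qc over C1qa did (0.823 to 1.04 against 0.970 to 1.32). These ratios were chosen after the values were seen and are given with no test. Line, strain and batch cannot be told apart here.

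**Figure D4:**
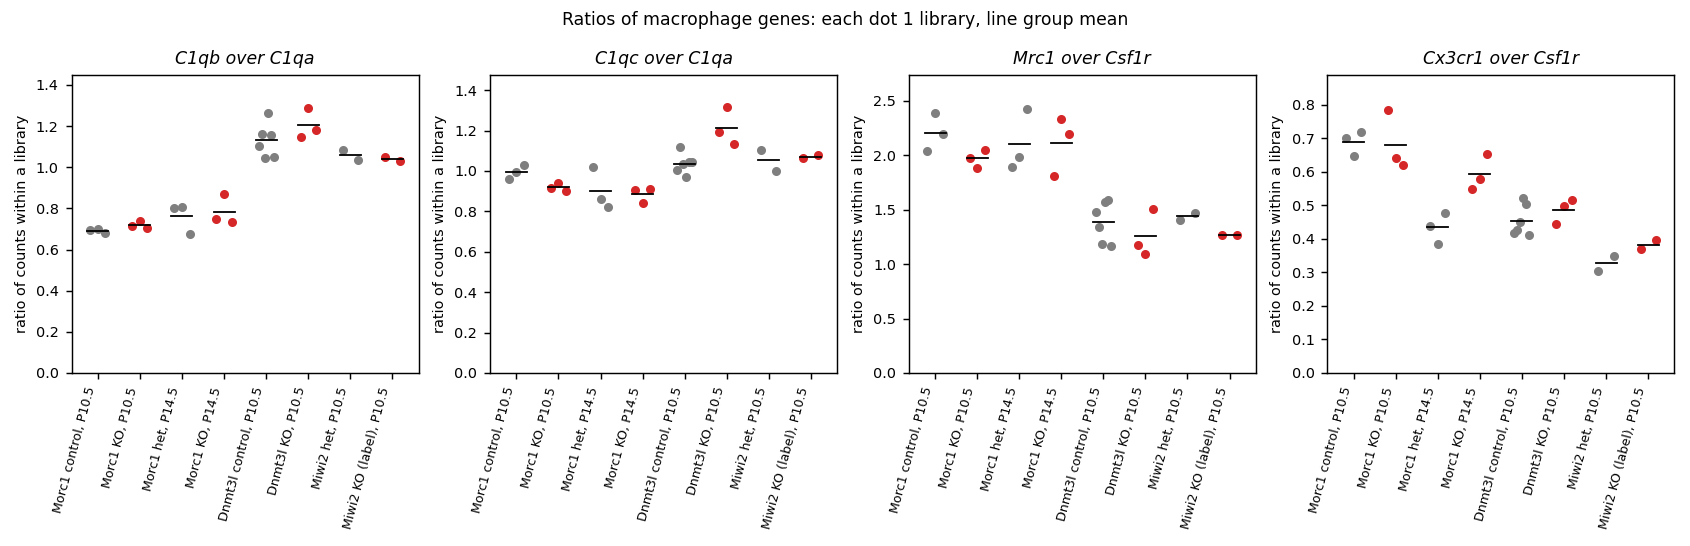
Count of 1 gene over the count of another within a library (y axis from 0) by line, genotype and day, 1 point per library with the group mean as a line; red marks KO and the 2 preliminary libraries are left out. For C1qb over C1qa and for Mrc1 over Csf1r the Morc1-line points lie apart from those of the Dnmt3l and Miwi2 lines at both ages and in every genotype.

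The count of Cx3cr1 over that of Csf1r separated the Morc1 genotypes at P14.5, at 0.386 to 0.476 in het and 0.548 to 0.652 in KO. At P10.5 the Morc1 controls and KO overlapped (0.648 to 0.718 against 0.619 to 0.785), as did those of the Dnmt3l line (0.410 to 0.521 against 0.443 to 0.517). The Miwi2 groups did not, at 0.305 and 0.349 in het and 0.369 and 0.397 in the libraries labelled KO. This was not particular to Cx3cr1. Mrc1 over Csf1r also lay apart, at 1.41 and 1.47 in Miwi2 het and 1.27 and 1.26 in the libraries labelled KO. So did Lyz2 over Csf1r, at 1.72 and 1.67 against 1.28 and 1.31. These ratios were also chosen after the values were seen and have no test.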

How the data were processed

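Whole testis RNA was made into libraries with a poly-A selecting, unstranded kit and sorted germ cell RNA (10 ng) with an rRNA-depleting kit. Per the methods, the authors trimmed reads to 50 bases, discarded those matching rRNA with up to 3 mismatches, mapped the rest uniquely to mm9 with up to 2 mismatches and counted them per gene. The submitters' notes name Bowtie, HTSeq and SAMtools, with versions not given in the sources used here. The 47 deposited tables hold whole-number read counts and the authors' RPKM per gene, both used here as deposited. RPKM shows levels, and tests used counts.

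Tests were run in R 4.3.3 with edgeR 4.0.16 (quasi-likelihood, TMM factors, filterByExpr), fitted on all genes of the libraries compared, with Benjamini-Hochberg adjustment over all genes and a threshold of 0.05. SEs are the log2 fold change over the square root of F. The script was tested on simulated data. Alternatives were RLE factors, DESeq2 1.42.0, no filter on low counts, a replicate block, each library left out, other controls and 1 fit over 27 libraries. Leaving out both P14.5 replicate 1 libraries was chosen after seeing the data. Levels, correlations, promoters and figures used Python 3.11.15, pandas 2.3.3, numpy 2.4.6 and matplotlib 3.10.9.

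The genes and the marker lists were chosen with earlier results of these data known. Genes were named from the 10 members, the lists and the 5 most like profiles. Limits from a count of 0 use 3 counts and, like all counts of reads without molecular identifiers, cover counting error only. Pairs of libraries within a group were checked for duplicates over all genes, and none was found. Pairs across groups were not checked. Small RNA tables were not used, nor were other assays. 1 gene of the marker lists is not reported here.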

Additional observations from a re-analysis of the deposited data

Results flagged for a closer look

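Of 17 pairs of a gene and a group of 4 to 10 libraries, 2 had 1 library far from the others, both in sorted het germ cells at P10.5 (n = 4). C1qb was 0.122 RPKM in replicate 4 and 0 in the other 3, from 2 reads. Cd163 was 0.0413 RPKM in replicate 3 and 0 in the other 3, from 3 reads. The rule marks about 1 in 20 groups by chance where values vary evenly, but where all other libraries are at 0 any single library with a read is marked, so these marks say no more than that.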

How the results depend on the processing

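Of 138 counts of genes past the threshold among the 10 under other settings, 112 stayed within 1.5 times the reported one. The 112 include counts of 0 that stayed at 0, so they say less about the comparisons with calls. Of 1373 fold changes with an adjusted p, 1275 stayed on their side of the threshold, 58 lost the call, 40 gained one and 0 called values changed sign. Where a setting moved a count, the cause was not tested. Blocking on the replicate number gave a count of 2 in place of 6 (Morc1 KO, P10.5), 1 in place of 0 (Morc1 KO, P14.5), 4 in place of 1 (Miwi2) and 0 in place of 1 (Morc1 KO across ages). With this block Cx3cr1 passed in Morc1 KO at P14.5 (0.66, adjusted p = 0.00276, edgeR) and not at P10.5 (0.54, adjusted p = 0.0589). Deviations of same-numbered libraries correlated at -0.22 to -0.05 in Morc1 at P10.5, -0.43 to -0.02 in Dnmt3l KO against controls, -0.37 to 0.27 in Dnmt3l het against WT, -0.11 to 0.35 in Morc1 at P14.5 (0.35 for replicate 1) and 0.32 in the Miwi2 pairs. With 2 libraries per group the 2 Miwi2 values are equal by construction. No comparison with 3 or more pairs had all of them above 0.1, and 2 Miwi2 pairs are too few to tell, so the numbers were not taken to pair animals. In 1 fit over 27 libraries the counts were 0 (Morc1 KO, P10.5), 1 (Morc1 KO, P14.5) and 0 (Miwi2). Adding the preliminary het library gave 7 in place of 4 in het testes across ages, no filter gave 2 in place of 1 in KO testes across ages, and leaving out both P14.5 replicate 1 libraries gave 1.

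Leaving out 1 library gave 2 to 9 genes (Morc1 KO, P10.5), 0 to 1 (Morc1 KO, P14.5), 3 to 8 (Dnmt3l KO) and 0 to 3 (Morc1 KO across ages). It gave 0 to 1 for the difference of the Morc1 effect between ages (1 without P14.5 KO replicate 1). It gave 0 for Dnmt3l het against WT and for Dnmt3l against Morc1 effects, and 3 for Dnmt3l against Morc1 controls. For Miwi2, het testes across ages and sorted cells, all or some of these fits leave 1 library in a group, so no range is given.

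Counts over all genes moved too. For Morc1 KO at P10.5, 2326 genes became 1200 with the block, 1454 in the 27-library fit and 922 to 2352 with 1 library left out. For Morc1 KO at P14.5, 5323 became 3309 without both replicate 1 libraries and 3517 to 5001 with 1 left out. For Miwi2, 197 became 389 with DESeq2 and 4503 with the block. For Dnmt3l het against WT, 1 became 2 with DESeq2, 0 with the block and 0 to 1 with 1 left out. For the 2 differences of effects, 1287 became 772 to 1746, and 2797 became 1689 with the block and 1753 to 4021, with 1 left out. Cd163 and Ptprc, the 2 genes read least, had the widest SEs at P10.5 in Morc1 KO, and groups of 2 or 3 animals limit every comparison.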
